A study of Homo sapiens with 12 samples.

Results

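The genes described here encode proteins that fold tubulin or bind microtubules. They are the tubulin cofactors TBCA, TBCB, TBCC, TBCD and TBCE, the lattice-binding protein MAP4, the plus-end proteins MAPRE1, CLASP1 and CLIP1, and TTC5, which reads newly made tubulin. The 10 genes were taken by name, and a probe set was counted only where the annotation of the array gave it 1 of these symbols and no other. They were 10 of 19775 genes with such a probe set and had 33 probe sets, of which 20 reached a log2 signal of at least 5 on at least 2 of the 12 arrays. These 20 belonged to 9 of the 10 genes, which were tested among 9130 genes. A gene with several probe sets was represented by the one with the highest mean.

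HCT116 cells, a human colorectal carcinoma line, were blocked with 2 mM thymidine for 19 h, kept in normal medium for 9 h and blocked again for 16 h, which stops cells as they enter S phase. The release was into medium with DMSO, the vehicle, or with 0.1 mg/ml nocodazole, a drug that binds tubulin and takes microtubules apart. RNA was hybridized to Affymetrix U133 Plus 2.0 arrays at 0, 2, 4 and 6 h and then hourly to 10 h with DMSO, and hourly from 7 to 10 h with nocodazole. Every culture had passed through the double thymidine block. Each condition had 1 array, so the spread behind each p is that of neighbouring times or of the differences at matched hours, not of separate cultures. In whole cultures, fewer cells that express a gene and less of its RNA per cell cannot be told apart.

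A new tubulin chain is folded by prefoldin and the chaperonin CCT and is then passed to the cofactors. TBCB and TBCE take alpha-tubulin, TBCA and TBCD take beta-tubulin, and TBCC completes the complex that releases the finished dimer. When free dimers are plentiful, as after nocodazole, cells degrade tubulin mRNA while it is translated, a control known as tubulin autoregulation that begins with TTC5. The question was whether the cofactors and microtubule-binding genes moved with the tubulins, over the cycle or under nocodazole.

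The median log2 signal over the 9130 genes was 9.12 to 9.56 on the DMSO arrays and 9.32, 9.41, 8.88 and 8.76 at 7, 8, 9 and 10 h with nocodazole, so that the last 2 arrays were lower than all others. Nocodazole results are therefore also given for 7 and 8 h alone and after quantile normalization, which gives every array the same distribution. The epithelial markers EPCAM, CDH1, KRT8, KRT18 and KRT19 lay between 10.39 and 14.83 on all arrays. Of the markers of other cell types, PTPRC, CD3E, COL3A1, PECAM1 and VWF stayed below 4.87 and COL1A1 lay at 7.75 to 8.60.

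Over the 8 DMSO times, CLASP1 and MAP4 changed and the other 7 genes tested did not pass (limma, spline of time, adjusted p under 0.05). This was 2 of 9 genes, against 21.8% of all 9130 genes, so the share was close to that of all genes. Between 0 to 4 h and 6 to 8 h, 5 of the 9 had a positive difference and CLASP1 alone passed as higher, against 5.41% of all genes. CLASP1 rose by 0.93 on the log2 scale or 1.91-fold. No cofactor passed in either test.

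**Figure D1:**
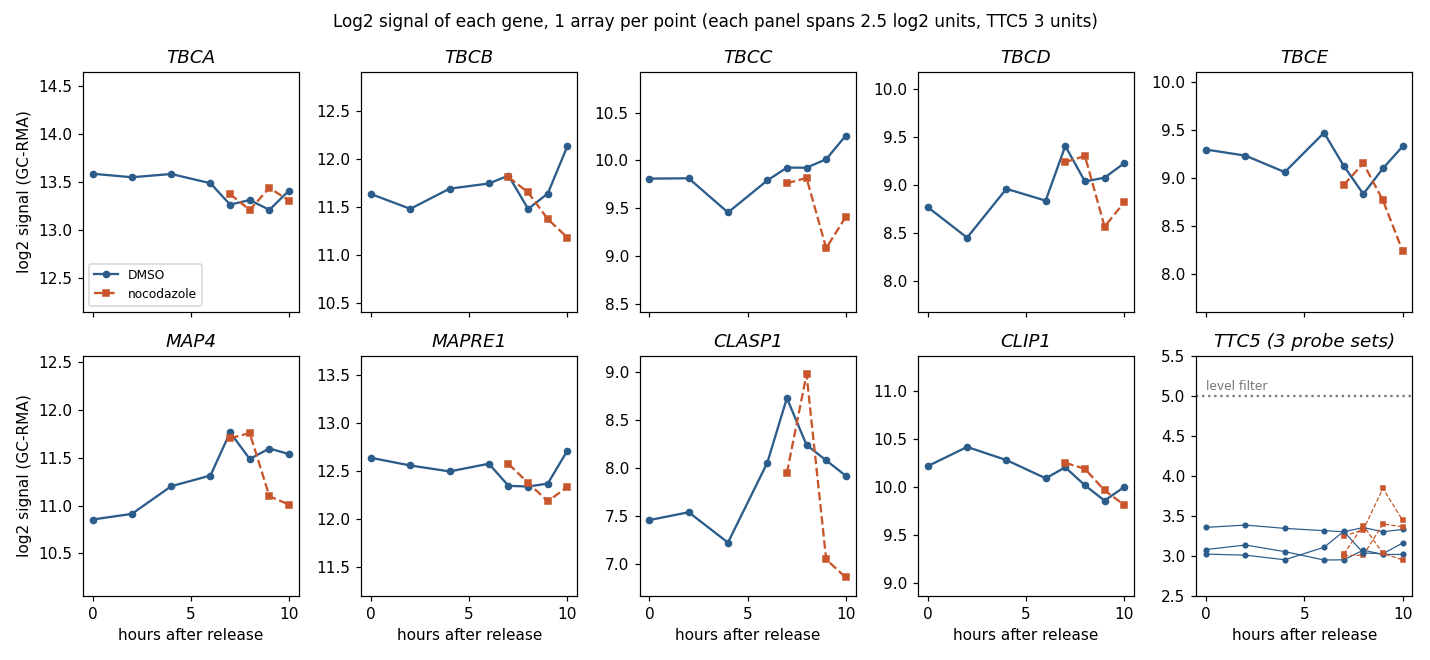
Log2 signal (vertical axes) of each gene against hours after release (horizontal axes), with blue circles for DMSO and orange squares for nocodazole, 1 array per point. All panels span 2.5 log2 units other than that of TTC5, which spans 3 and shows its 3 probe sets below the dotted filter at 5. CLASP1 and MAP4 are lower at 0 to 4 h than at 6 to 8 h, and at 9 and 10 h the nocodazole points of TBCB, TBCC, TBCE, MAPRE1 and CLASP1 lie below all their DMSO points.

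TBCA, which binds beta-tubulin, was the most even of the cofactors, with DMSO log2 signals of 13.59, 13.55, 13.58, 13.49, 13.26, 13.31, 13.21 and 13.41 from 0 to 10 h. All 3 arrays of 6 to 8 h were lower than those of 0 to 4 h, as for 9.98% of all genes. The difference was -0.22 (SE 0.09, limma, adjusted p = 0.182). Its fitted curve spanned 0.34 as deposited (adjusted p = 0.105) and 0.30 after quantile normalization, where it passed (adjusted p = 0.0232). After that normalization 4 of the 9 genes passed, TBCA, MAP4, CLASP1 and CLIP1, against 40.1% of all genes.

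TBCB, which takes up alpha-tubulin, had DMSO log2 signals of 11.64, 11.48, 11.69, 11.75, 11.83, 11.48, 11.64 and 12.14. The 10 h array was the highest and the windows overlapped. TBCC, the cofactor that triggers release of the dimer, had 9.81, 9.81, 9.46, 9.79, 9.93, 9.92, 10.01 and 10.26. Here 4 h was the lowest array and 9 and 10 h were both above 6 to 8 h, with a mean difference of 0.26 (SE 0.16, limma, adjusted p = 0.912). Of all genes, 9.75% were higher without overlap in that comparison.

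TBCD, which holds beta-tubulin in the complex, had DMSO log2 signals of 8.76, 8.45, 8.96, 8.83, 9.40, 9.03, 9.07 and 9.22. Its lowest array was 2 h and its highest 7 h, and the difference of 0.37 from 0 to 4 h to 6 to 8 h did not pass (SE 0.19, limma, adjusted p = 0.281). TBCE, the partner of TBCB for alpha-tubulin, had 9.30, 9.23, 9.06, 9.47, 9.13, 8.83, 9.10 and 9.33. Its 6 and 8 h arrays were the highest and the lowest of the course, so its window means of 9.20, 9.14 and 9.21 were close together.

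MAP4 stabilizes microtubules along their length. Its DMSO log2 signals were 10.85, 10.91, 11.20, 11.31, 11.76, 11.48, 11.59 and 11.54. All 3 arrays of 6 to 8 h were above those of 0 to 4 h, as for 20.8% of all genes, and the level at 9 and 10 h was like that at 8 h. The fitted curve spanned 0.78 (limma, adjusted p = 0.0219), while the difference of the windows was 0.53 and did not pass (SE 0.15, adjusted p = 0.0682). The course no longer passed without 0 h (adjusted p = 0.105), 2 h (adjusted p = 0.0843) or 9 h (adjusted p = 0.0576). With the mean of the MAP4 probe sets the fitted span was 0.55 and did not pass (limma, adjusted p = 0.111).

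CLASP1 attaches to growing ends and keeps microtubules from shrinking, also at kinetochores. Its DMSO log2 signals were 7.46, 7.54, 7.22, 8.05, 8.73, 8.24, 8.08 and 7.92. The 3 arrays of 0 to 4 h were the lowest and 7 h was the highest, and the level then went down at each later hour. Of all genes, 20.8% were higher at 6 to 8 h than at 0 to 4 h without overlap. The rise of 0.93 to 6 to 8 h passed (SE 0.20, limma, adjusted p = 0.0364), as did the course, with a fitted span of 1.12 (adjusted p = 0.0416). Of all genes, 6.05% passed between the windows and 5.41% did so as higher. The rise passed without 6 h and did not pass without any other time, 0, 2, 4, 7, 8, 9 or 10 h (adjusted p 0.0617 to 0.128). With any 1 of the 8 times left out, the course did not pass (adjusted p 0.0531 to 0.185). After quantile normalization the difference was 0.64 and lay just above the threshold (adjusted p = 0.05005).

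MAPRE1 marks growing microtubule ends and recruits other proteins to them, and had DMSO log2 signals of 12.64, 12.56, 12.50, 12.58, 12.35, 12.34, 12.37 and 12.72. The lowest were 7, 8 and 9 h, and the range was 0.37. CLIP1, which links growing ends to cargo and to dynein, had 10.22, 10.42, 10.28, 10.09, 10.21, 10.02, 9.86 and 10.00. The arrays of 6 to 8 h were all below those of 0 to 4 h, as for 9.98% of all genes, and those of 9 and 10 h were lower again without overlap, as for 7.37%. The first of these differences was -0.20 as deposited (SE 0.12, limma, adjusted p = 0.339) and -0.37 after quantile normalization, where it passed (adjusted p = 0.0474, with 4.6% of all genes lower). Between 6 to 8 h and 9 to 10 h no gene of the 9130 passed in limma (0% of all genes), and at an unadjusted p under 0.05 there were 470 genes, 0 of them among the 9.

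Quantile normalization moved the median of all genes from 0.06 to -0.10 between the early windows. The calls moved with it, from 494 genes higher and 58 lower to 464 and 420. Relative to the median of all genes, the CLASP1 difference was the largest of the 9 on both scales.

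The 3 probe sets of TTC5 had log2 signals of 2.95 to 3.84 on all 12 arrays and passed the level filter on none. TTC5 could therefore not be tested, and these values say only that its probe sets gave little signal. On the 9 h nocodazole array 1 of them had 3.84, its highest value. Another was also highest there (3.40), and the third was highest at 8 h with nocodazole (3.38). Some probe sets below the filter of CLASP1, CLIP1, MAP4 and TBCD were highest on the 9 h nocodazole array too, and others were not.

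The RefSeq promoters of CLASP1 and MAP4, the genes that changed over the course, and of TBCC, which was lower with nocodazole at every hour, are shown for their CCAAT boxes, a motif common in genes of G2 and mitosis. Each is the 250 bases before the annotated start in GRCh38.p14, read 5′ to 3′ on the strand of the gene, with CCAAT on either strand in capitals (CCAAT, or ATTGG for the other strand). CLASP1 lies at chr2:121649463-121649712, MAP4 at chr3:48088849-48089098 and TBCC at chr6:42746104-42746353, all on the minus strand.
CLASP1: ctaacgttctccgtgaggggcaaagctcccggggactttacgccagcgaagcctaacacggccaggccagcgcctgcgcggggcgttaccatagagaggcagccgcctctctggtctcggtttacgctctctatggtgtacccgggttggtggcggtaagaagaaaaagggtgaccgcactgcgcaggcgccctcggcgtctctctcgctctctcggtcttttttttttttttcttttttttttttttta
MAP4: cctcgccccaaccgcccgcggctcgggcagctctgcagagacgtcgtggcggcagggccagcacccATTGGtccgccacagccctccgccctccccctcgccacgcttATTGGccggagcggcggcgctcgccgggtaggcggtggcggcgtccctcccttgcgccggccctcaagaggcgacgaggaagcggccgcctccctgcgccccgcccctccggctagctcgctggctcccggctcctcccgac
TBCC: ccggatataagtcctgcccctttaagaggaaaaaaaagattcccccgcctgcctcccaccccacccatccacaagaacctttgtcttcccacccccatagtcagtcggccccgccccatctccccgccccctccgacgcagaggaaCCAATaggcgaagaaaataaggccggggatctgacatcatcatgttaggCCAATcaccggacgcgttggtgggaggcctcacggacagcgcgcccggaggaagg
MAP4 and TBCC had 2 CCAAT motifs each and CLASP1 had none. A CCAAT was present in 32% of 35116 promoters of this length and in 6 of 14 promoters of the 10 genes. It was present in 13 of 23 promoters of 17 alpha- and beta-tubulin genes, of which only 10 were above the filter. A second MAP4 start, at chr3:48016417-48016666, had no CCAAT and had TTTGAA, the core of the cell cycle homology region, which 13.3% of all promoters held on either strand. Which start the probe sets of MAP4 read was not tested.

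All 10 tubulins above the filter were lower with nocodazole than with DMSO at each of the 4 matched hours, 40 of 40 differences as deposited and after quantile normalization. The 9 cofactor and microtubule-binding genes were lower in 24 of 36 differences as deposited and in 17 of 36 after quantile normalization. Over all genes, 23634 of 36520 differences were lower as deposited and 18452 after quantile normalization. No member of either group passed as deposited, where 0% of the 9130 genes did (limma, hour as a block). At an unadjusted p under 0.05 there were all 10 tubulins, TBCC alone of the 9 genes, and 953 of all genes. After quantile normalization 8 of the 10 tubulins passed as lower and 0 of the 9 genes passed. TUBA1C (-0.21, adjusted p = 0.125) and TUBB4A (-2.12, adjusted p = 0.0638) were lower too but did not pass. In all, 0.394% of genes then passed and 0.142% were lower.

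**Figure D2:**
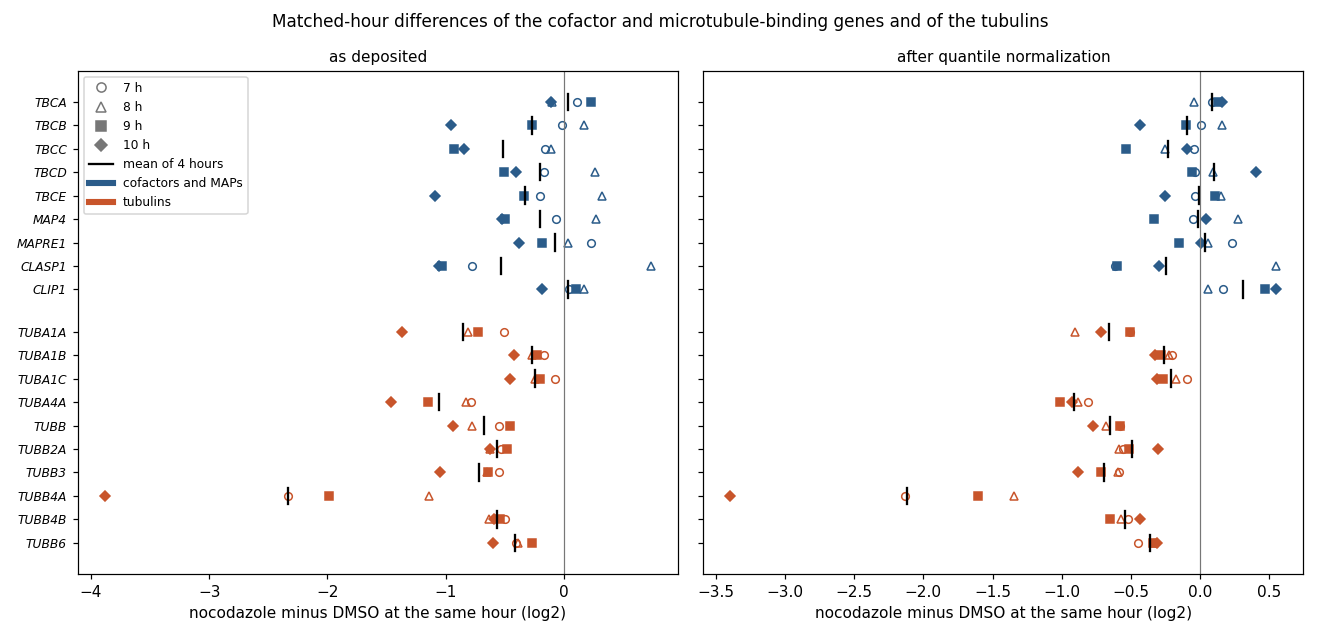
Nocodazole minus DMSO at the same hour (horizontal axes, log2) for the 9 cofactor and microtubule-binding genes (blue) and the 10 tubulins (orange), as deposited (left) and after quantile normalization (right). Symbols are the hours, 1 difference each, and black ticks the mean of 4. Every tubulin point is left of 0, while the blue points lie on both sides in both panels.

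The tubulin values set the comparison. TUBB, the main beta-tubulin of dividing cells, had log2 signals of 14.64, 14.59, 14.38 and 14.50 with DMSO and 14.10, 13.81, 13.93 and 13.56 with nocodazole. TUBA4A differed by -1.05 (SE 0.15) and TUBB4A by -2.34 (SE 0.41). The other 8 differences were between -0.24 (TUBA1C) and -0.86 (TUBA1A). The mean of the 10 tubulin differences was -0.64, -0.64, -0.67 and -1.14 at 7, 8, 9 and 10 h, and -0.64, -0.63, -0.65 and -0.84 after quantile normalization. The median of the 9 genes was -0.06, 0.17, -0.33 and -0.53, and -0.03, 0.10, -0.10 and 0.01 after normalization. Over all genes it was -0.09, 0.08, -0.25 and -0.61 as deposited. The median of the 9 genes was thus close to that of all genes at each hour, and the tubulin mean was below both.

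TBCC was the one gene of the 9 that was lower at all 4 hours. Its log2 signals with nocodazole were 9.76, 9.82, 9.09 and 9.41 at 7 to 10 h, and those with DMSO 9.93, 9.92, 10.01 and 10.26. The groups did not overlap, as for 7.16% of all genes in this direction. The differences were -0.16, -0.11, -0.93 and -0.85, and -0.05, -0.25, -0.54 and -0.09 after quantile normalization. Of all genes, 16% were lower at all 4 hours as deposited and 13.5% after normalization. The mean difference of -0.51 did not pass (SE 0.21, limma, unadjusted p = 0.0439, adjusted p = 0.386), and after quantile normalization it was -0.23.

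CLASP1 was lower at 3 of the 4 hours, with log2 signals of 7.95, 8.97, 7.05 and 6.86 with nocodazole against 8.73, 8.24, 8.08 and 7.92 with DMSO. The 8 h nocodazole array had the highest CLASP1 signal of all 12 arrays and the 10 h array the lowest. The mean difference was -0.53 (SE 0.33, limma, adjusted p = 0.395). Without 8 h, the only hour at which CLASP1 was higher, it was -0.96 and passed (limma, adjusted p = 0.0447). Of all genes, 401 of 9130 then passed, against 0 with all 4 hours. After quantile normalization the 4 differences were -0.62, 0.55, -0.60 and -0.30.

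The cofactors of alpha-tubulin had their lowest signals at 10 h with nocodazole, as did CLASP1 (6.86) and CLIP1 (9.81). That array also had the lowest median over all genes (8.76). TBCB had log2 signals of 11.81, 11.65, 11.38 and 11.18 with nocodazole against 11.83, 11.48, 11.64 and 12.14 with DMSO. TBCE had 8.93, 9.15, 8.77 and 8.24 against 9.13, 8.83, 9.10 and 9.33. Both overlapped with DMSO, and the 10 h differences of -0.95 and -1.09 became -0.43 and -0.25 after quantile normalization.

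The cofactors of beta-tubulin had other low points. TBCA had log2 signals of 13.37, 13.21, 13.44 and 13.30 with nocodazole against 13.26, 13.31, 13.21 and 13.41, with differences of both signs at the early and the late hours. TBCD had 9.24, 9.30, 8.56 and 8.82 against 9.40, 9.03, 9.07 and 9.22. Its mean difference was -0.20 as deposited and 0.10 after quantile normalization (SE 0.20 and adjusted p = 0.522 as deposited, limma).

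Among the genes that bind microtubules, MAP4 had log2 signals of 11.70, 11.76, 11.10 and 11.01 with nocodazole against 11.76, 11.48, 11.59 and 11.54. It was lower at 7, 9 and 10 h, and its 10 h difference of -0.53 became 0.04 after quantile normalization. MAPRE1 had 12.58, 12.38, 12.19 and 12.34 against 12.35, 12.34, 12.37 and 12.72, higher at 7 and 8 h and lower later. CLIP1 had 10.25, 10.19, 9.97 and 9.81 against 10.21, 10.02, 9.86 and 10.00, and after quantile normalization it was higher at all 4 hours (0.16, 0.06, 0.47 and 0.55), as were 11.1% of all genes.

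The late arrays carried most of the lower values. At 7 and 8 h, 8 of 18 differences of the 9 genes were lower, and at 9 and 10 h 16 of 18, or 10 of 18 after quantile normalization. Over all genes, 9402 of 18260 were lower at 7 and 8 h. At 9 and 10 h it was 14232 of 18260, or 9017 after quantile normalization, so all genes shifted too. All 20 tubulin differences were lower at the early and the late hours. In 9 and 10 h alone CLASP1 (-1.05), TBCC (-0.89) and TBCE (-0.71) passed as lower, 3 of 9 genes against 32.3% of all genes. At 7 and 8 h alone none of the 9 passed. The test of whether the difference changed from the early to the late hours passed for 0 of the 9 genes, at 12.3% of all genes (limma), and 4 of the 9 had an unadjusted p under 0.05, with 3215 of all genes. Their changes ran from -1.02 (CLASP1) to 0.06 (TBCA) as deposited, where the median of all genes was -0.44, and from -0.41 to 0.40 after quantile normalization, where it was 0.01. Of all genes, 182 passed as higher and 940 as lower as deposited, and 372 and 347 after normalization. Without 7 h CLASP1 passed, with 17.9% of all genes, and without 9 h TBCB, TBCC, TBCE, MAP4 and MAPRE1 did, with 44.3% of all genes.

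Taken against the mean of the 10 tubulins at the same hour, all 9 genes were on average higher. TUBB4A had the largest difference in that mean (-2.34), and the tubulins themselves were above it in 27 of 40 differences on both scales. A gene above the mean thus need not differ from most tubulins. In 33 of 36 differences the gene was above the tubulin mean, and in 36 of 36 after quantile normalization. Over all genes this held for 32397 of 36520 differences as deposited and 34403 after normalization, so the 9 genes were near all genes. Of the 9, 6 passed as higher, CLIP1 (0.81), TBCA (0.80), MAPRE1 (0.70), TBCD (0.57), MAP4 (0.57) and TBCB (0.50), against 67.1% of all genes. The differences of TBCE (0.44), TBCC (0.26) and CLASP1 (0.24) did not pass. A share of 6 in 9 lay near that of all genes. After quantile normalization 8 of the 9 passed as higher, TBCC (0.46) and TBCE (0.68) among them, against 84.7% of all genes. As deposited, 5 of the 9 passed without 7 h and 7 without 9 h. Against the median of the tubulins in place of their mean 3 did, CLIP1, TBCA and MAPRE1. The shares of all genes under these alternatives are not given here, so these counts say nothing particular about the 9 genes.

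Over the DMSO course, likeness was measured as Pearson's r between a gene and the mean of the centred log2 signals of the 10 tubulins. That mean moved little, from -0.14 at 2 h to 0.13 at 7 and 10 h. TUBB4A weighed most in it, with a DMSO range of 2.37, from 6.72 at 2 h to 9.09 at 10 h. The ranges of the other tubulins were 0.22 (TUBA1B) to 1.12 (TUBA1A). Likeness to a mean without TUBB4A was not tested, so a high r need not hold for the other tubulins. TBCD and TBCB were most like the mean of the 10, with r = 0.80 (exact permutation p = 0.0153, rho = 0.786, p = 0.0279) and r = 0.78 (exact permutation p = 0.0131, rho = 0.81, p = 0.0218). None of the 9 genes passed after adjustment over 9120 genes (adjusted p = 0.434 and 0.430 for these), and 0% of all genes did. The test treats the 8 arrays as exchangeable, although they follow each other in time. An unadjusted p under 0.05 was found for 10.6% of all genes and for TBCD and TBCB of the 9.

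The other values of r were 0.66 for MAP4, 0.37 for CLASP1, 0.15 for TBCC, 0.02 for TBCE, -0.01 for MAPRE1, -0.16 for CLIP1 and -0.23 for TBCA. The median over all genes was 0.29 as deposited and -0.26 after quantile normalization. After normalization TBCD (0.91) and MAP4 (0.87) were highest, TBCB went to 0.33, and TBCE (-0.72) and MAPRE1 (-0.82) were lowest. Without 7 and 10 h, the arrays farthest from the median of the tubulin mean, r was 0.56 for TBCD and 0.58 for TBCB (exact permutation p = 0.264 and 0.226). With any 1 time left out, r was at least 0.70 for TBCD and 0.72 for TBCB. In this family 9 relations were computed among the 9 genes, with the p adjusted over all genes.

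**Figure D3:**
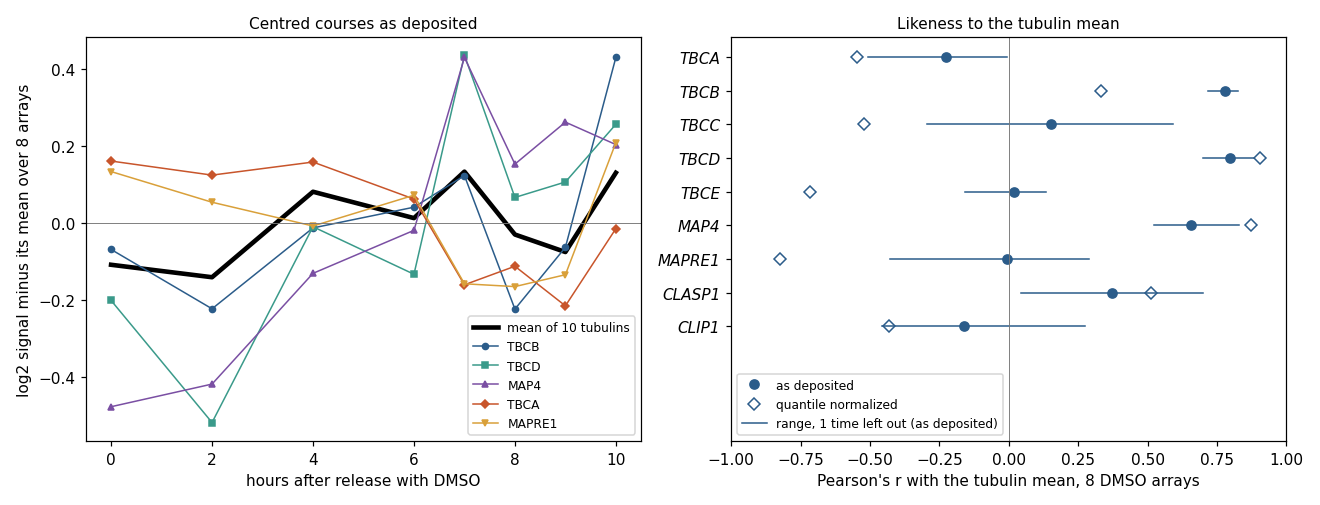
Left, log2 signal minus its mean over the 8 DMSO arrays against hours after release for the tubulin mean (black) and 5 genes. Right, Pearson's r of each of the 9 genes with the tubulin mean as deposited (filled), after quantile normalization (open) and as the range when 1 time is left out (lines); TBCD lies at 0.80 and 0.91, while TBCE and MAPRE1 lie near 0 as deposited and below -0.70 after normalization.

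The tubulins did not follow 1 course themselves. Against the mean of the other tubulins, TUBA1A had r = -0.64, TUBB -0.48, TUBB4A -0.07 and TUBB2A 0.20, and the other 6 had 0.69 to 0.88. TUBA1A fell from 12.51 at 0 to 4 h to 11.87 at 6 to 8 h (difference -0.64, SE 0.14, limma, adjusted p = 0.0395), and over the course TUBA1A and TUBB changed. The 9 genes did not share a course either. Among their 36 pairs, r was above 0 in 20 as deposited and in 12 after quantile normalization, with the highest value for TBCD and MAP4 (0.89) and the lowest for TBCA and MAP4 (-0.875).

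Probe sets of the same gene did not always run together. Of the 20, 15 were higher at 6 to 8 h than at 0 to 4 h and 5 lower, and 17 were lower with nocodazole. In 4 of the 6 genes with several probe sets, CLIP1, MAPRE1, TBCD and TBCE, the signs of the first comparison differed, and for nocodazole in CLIP1 and TBCD. For CLIP1 the difference between the windows was -0.20 for the probe set used and 0.76 for the other, and r between them over the 12 arrays was -0.139. The second of these had log2 signals of 7.00, 7.78 and 7.38 at 0 to 4 h and 7.67, 8.52 and 8.24 at 6 to 8 h, so the windows overlapped by its 2 and 6 h arrays.

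For MAPRE1 the corresponding differences were -0.14 and 0.21, and for TBCE -0.05 and 0.24, neither of which passed. All 5 probe sets of MAP4 were higher at 6 to 8 h, by 0.07 to 0.53, with r of 0.425 to 0.849 to the one used. Over the course only the one used passed when each was tested on its own (limma, adjusted p = 0.0247). The others did not (adjusted p 0.0552 to 0.542). The 3 of TBCB agreed closely (r = 0.959). TBCD had 1 probe set, with a mean of 5.33 just above the filter, that moved by -0.04, against 0.37 and 0.54 for the others. Tested on its own, 1 of the other MAP4 probe sets passed for the change of the nocodazole difference (-1.44, limma, adjusted p = 0.0456).

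**Figure D4:**
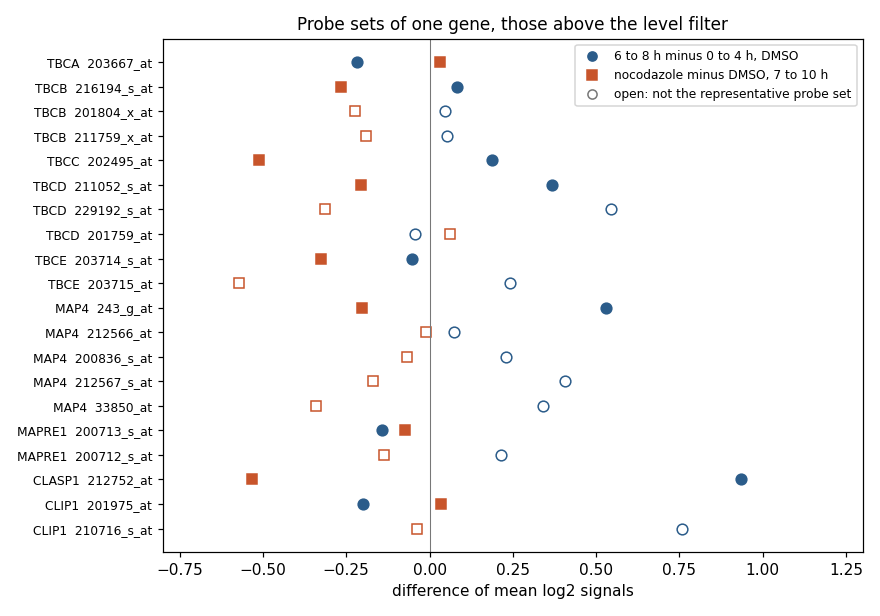
Difference of mean log2 signals (horizontal axis) for each of the 20 probe sets above the filter, 6 to 8 h minus 0 to 4 h with DMSO (blue circles) and nocodazole minus DMSO over 7 to 10 h (orange squares); filled symbols are the probe sets used for the gene. The blue symbols of CLIP1 lie at -0.20 and 0.76, and 17 of 20 orange symbols are left of 0.

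The steps before and after the cofactors were compared from lists of the same pathway. Of 12 chaperonin and prefoldin genes tested, which fold tubulin before the cofactors, 0 passed over the course, between the windows or with nocodazole (limma), with 1, 0 and 0 at an unadjusted p under 0.05. Of all genes, 21.8% passed over the course, 6.05% between the early windows and 0% with nocodazole. After quantile normalization 2 of the 12 passed over the course, against 40.1% of all genes. Between the early windows 1 then passed as lower, against 4.6%. The nocodazole differences of the 12 ran from -0.25 to 0.04 as deposited, with a median of -0.07 against -0.22 for all genes. Of 12 partners of the cofactors and enzymes that modify tubulin, RP2, a relative of TBCC that acts on the GTPase ARL3, passed over the course (fitted span 1.83, adjusted p = 0.0230) and 0 with nocodazole. This 1 of 12 stood against 21.8% of all genes. After quantile normalization 3 of these 12 passed over the course, against 40.1%, and 1 as lower between the early windows, against 4.6%.

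Of 25 other microtubule-binding genes tested, 7 passed over the course, against 21.8% of all genes, and 12 after quantile normalization, against 40.1%. Between 0 to 4 h and 6 to 8 h 3 passed as higher, against 5.41% of all genes. NDE1, which binds dynein and LIS1 at kinetochores, rose by 2.10 (SE 0.34, limma, adjusted p = 0.0220). CKAP5, the polymerase of growing ends, rose by 1.47 (SE 0.20, adjusted p = 0.0184). The median of the 25 was 0.25 between these windows, against 0.06 for all genes. With nocodazole 0 of the 25 passed or had an unadjusted p under 0.05.

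Among 10 tested partners of TTC5 in tubulin autoregulation, mostly subunits of the CNOT deadenylase, 3 passed over the course, among them CNOT1 (fitted span 0.81, adjusted p = 0.0138), the scaffold, and CNOT9 (0.68, adjusted p = 0.0449). These 3 of 10 stood against 21.8% of all genes, and 6 of 10 passed after quantile normalization, against 40.1%. With nocodazole 0 passed and 2 had an unadjusted p under 0.05 (limma). The nocodazole difference of CNOT9 (-1.51, SE 0.28, adjusted p = 0.00977) and of the catalytic subunit CNOT6L (-1.97, SE 0.43, adjusted p = 0.0166) fell from the early to the late hours, and also after quantile normalization (-0.95 and -1.54), 2 of 10 against 10.3% of all genes as deposited.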

How the data were processed

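Log2 signals per probe set were deposited, which the authors computed with GC-RMA (GCRMA in the submitters' processing notes, version not given in the sources used here). That the logarithm has base 2 was inferred from the spread of the values. All 12 columns were used, and 0 belonged to other samples or to comparisons of the authors. Precision is limited by having 12 arrays.

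Of 54675 probe sets, 41097 had 1 symbol, 1801 several and 11777 none in the annotation of the array. A filter kept the 15030 with 1 symbol and a log2 signal of 5 or more on 2 or more arrays, and the brightest stood for its gene (9130 genes). No symbol needed updating (0 probe sets).

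All tests of single genes used limma 3.58.1 (R 4.3.3), a variance prior that follows intensity, and Benjamini-Hochberg adjustment over all genes at 0.05. They were a natural cubic spline (3 degrees of freedom) over the DMSO times, differences of 3 DMSO windows (0 to 4, 6 to 8 and 9 to 10 h), nocodazole against DMSO with hour as a block, and its interaction with late hours. Likeness to the tubulins was Pearson's r with exact two-sided permutation over all 40320 orders of 8 arrays. The difference relative to the tubulins was added after the data were seen. The fits were run on simulated data with independent noise on each array and no shift between arrays. Such data cannot show whether the p hold for arrays that follow each other in time. Motifs were searched with Python 3.11.15 and plots drawn with matplotlib 3.10.9.

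Named genes were the 10 chosen, all tubulins above the filter, up to 2 passing genes of each further list by smallest p, and the 3 genes most alike each of the 9. The genes and lists were chosen with earlier results of these data known. Alternatives were quantile normalization, no filter or one at 7, the mean of the probe sets, each probe set alone, a prior without that trend, 2 degrees of freedom for the spline, 0 and 2 h against 7 and 8 h, 7 and 8 h or 9 and 10 h alone for nocodazole, the median of the tubulins, and each time left out.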

Additional observations from a re-analysis of the deposited data

How the results depend on the processing

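Of 603 values of single genes under the alternatives, 519 kept their direction and their side of the threshold, 29 no longer passed, 16 newly passed and 39 had the opposite sign. Where a cause is not given by the construction of the alternative, the cause was not tested. Over the DMSO course the 2 genes that passed became 4 with quantile normalization, and 1 without a level filter, with the mean of the probe sets, with each probe set tested on its own (a gene counted where most of its probe sets passed) and with a spline of 2 degrees of freedom. Leaving out 1 time gave 0 to 1. Of all 9130 genes, 1993 passed as reported, 3665 with quantile normalization, 2294 with the mean of the probe sets and 1848 with the smaller spline. Without a level filter it was 1499 of 19775 genes, and with each probe set on its own 3600 of 15030 probe sets. With 1 time left out, 862 to 2220 of the 9130 genes passed. Between 0 to 4 h and 6 to 8 h the count of 1 became 0 without a level filter and 3 for 0 and 2 h against 7 and 8 h, and 0 to 2 with 1 time left out. Of all genes, 552 of 9130 passed as reported, 65 of 19775 without a level filter and 1367 of 9130 for 0 and 2 h against 7 and 8 h. With 1 time left out, 0 to 1266 of 9130 did. With nocodazole the count of 0 became 3 for 9 and 10 h alone, where 3364 of 9130 genes passed. It was 0 to 1 with 1 hour left out, where 0 to 401 of 9130 genes passed. The change of the nocodazole difference, with 0, gave 2 without a level filter, 2 with a filter at 7 and 0 to 5 with 1 hour left out. Relative to the tubulins, a comparison chosen with its alternatives after seeing the data, 6 became 3 with the median of the tubulins, and 8 both with quantile normalization and at 7 and 8 h alone. For the change and the values relative to the tubulins, shares of all genes are given only where stated in the Results. Counts of the 9 genes without such a share are not results about these genes.

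No value that changed sign had passed its test as reported. Between the early windows they were TBCC with quantile normalization (-0.0251) and, with the mean of the probe sets, TBCE (0.0949), MAPRE1 (0.0355) and CLIP1 (0.28), and TBCE ran from -0.22 to 0.10 with 1 time left out. With nocodazole they were TBCD (0.10) and MAPRE1 (0.0368) with quantile normalization, TBCB (0.0782), TBCD (0.0492), TBCE (0.0599), MAP4 (0.10) and MAPRE1 (0.13) at 7 and 8 h alone, and CLIP1 with the mean of the probe sets (-0.0014) and at 9 and 10 h alone (-0.0401). With 1 hour left out TBCA ran from -0.0328 to 0.0786, MAPRE1 from -0.18 to 0.0272 and CLIP1 from -0.0110 to 0.11. For likeness to the tubulins, r was -0.52 for TBCC and -0.72 for TBCE with quantile normalization. Without the arrays of 7 and 10 h it was 0.0929 for TBCA, -0.65 for TBCC, -0.15 for TBCE and -0.0766 for CLASP1. It was 0.53 for MAPRE1 and 0.47 for CLIP1 with the mean of the probe sets, and for MAPRE1 0.0484 without a level filter and 0.0205 with the median of the tubulins. With 1 time left out r ran from -0.29 to 0.59 for TBCC, from -0.16 to 0.13 for TBCE, from -0.43 to 0.29 for MAPRE1 and from -0.46 to 0.28 for CLIP1. Relative to the tubulins, CLASP1 was -0.14 at 9 and 10 h alone and ran from -0.14 to 0.44 with 1 hour left out.

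The main limits were the single array per condition, the lower level of the nocodazole arrays of 9 and 10 h, and probe sets of 1 gene that moved apart, as for CLIP1. The signal of TTC5 was too low for any statement on it.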

Other observations

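The genes most alike each of the 9 in course over the 12 arrays as deposited are given by Pearson's r with no test, and these arrays include the generally lower ones of 9 and 10 h with nocodazole. The cofactor TBCA was most like RPL39 (r = 0.947), SNRPG and TMA7, genes of small ribosomal, spliceosomal and translation-related proteins. TBCB was most like RTL8A (r = 0.959), SDF4 and MAGED1, TBCC like USP8 (r = 0.972), GRTP1 and PDZD8, TBCD like RYBP (r = 0.952), NAGPA and PIAS1, and TBCE like FAM98B (r = 0.963), STK4 and MGAT4B. MAP4 was most like ZNF559 (r = 0.982), NFKB1 and NOS3, MAPRE1 like the proteasome gene PSMD1 (r = 0.939), EXOC5 and SLC35B1, CLASP1 like LOXL1-AS1 (r = 0.960), PSME3IP1 and CTC1, and CLIP1 like COMMD2 (r = 0.934), TGFA and PLCXD2. None of these genes was a tubulin or another of the 9 genes.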
